A study of Arabidopsis thaliana with 8 samples.

Results

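The tiles described here are the high tiles that lie inside long low stretches of a tiling array of Arabidopsis thaliana chromosome 4, probed for histone H3 dimethylated at lysine 4 (H3K4me2). Whole seedlings of the accession C24, 10 days old and untreated, were used. Each of 4 replicates, numbered I to IV, started from 50 µg of material, and its DNA pulled down with an antibody against H3K4me2 (IP) was compared with its own input on 2 arrays of opposite dye orientation. All arrays belong to that 1 group, with no second accession, hybrid or control antibody. The deposited values are log ratios of the 2 channels with a base and a direction that the sources used here do not state, so a high tile is one above the median of its array and not one shown to be enriched in the IP.

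The low stretches are 44 of 231 plates of tiles, in 7 blocks of consecutive plate numbers. These are TA21 to TA30, TA37 to TA51, TA53, TA57 to TA59, TA62 to TA63, TC17 to TC25 and TC27 to TC30. Each replicate was centred on its median over all 21296 measured tiles, and a tile of these plates was taken as high when the mean of the 4 centred values was above 0. The rule gave 295 of the 3838 measured tiles of the low plates (7.69%), against 10404 of 17458 tiles (59.6%) on the other 187 plates. The plates were listed as low from these same data, so a smaller share on them was set in advance. The count depends on where 0 is set: with the values as deposited it was 153, and with each replicate centred on its mode it was 150. The levels below describe this choice and carry no test, since the same 4 values chose the tiles.

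Dimethylation of lysine 4 is a mark of euchromatin, found along the promoters and bodies of plant genes whether they are active or poised, and it is scarce over silent transposons. Heterochromatin around centromeres and in chromosomal knobs carries other marks, such as methylation of lysine 9 and of DNA. Arabidopsis heterochromatin is not uniform, and single genes with euchromatic marks are known to sit between its transposons. Besides its pericentromere, chromosome 4 is known to carry a heterochromatic knob on its short arm in some accessions, the reference accession Columbia among them. Tiles could not be tied to genes, coordinates or sequences with the tables used here, so these landmarks were not placed on the plates, and tiles are named by plate, row and column.

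After centring and with all blocks pooled, the 4 replicates put the high tiles at nearly the same level. Each block taken alone had a wider spread between replicates (below). Their median centred log ratio was 0.64, 0.63, 0.63 and 0.61 for I to IV, or 0.63 ± 0.01 (SD, n = 4). The other 3543 tiles of the same plates had medians of -2.33, -2.12, -2.33 and -2.10, or -2.22 ± 0.12. Seedlings mix cell types, so a difference in how many cells and one in the amount per cell cannot be told apart, whichever way the ratio runs. Measured from the median of the other tiles of their plate, high tiles lay a median of 2.75 ± 0.09 above (SD, n = 4). The least raised lay 1.40 above and the most raised 4.80. The median height was 2.85, 2.71, 2.81 and 2.65 for I to IV. Some such height was set in advance, since high tiles lie above 0 by the rule and the plates were listed as low. Against high tiles of the rest of the chromosome those of the low plates were low. Tiles above 0 on the other plates had a median of 0.92 ± 0.05, and 44.8% of them exceeded 1, against 91 of 295 (30.8%) here. Values above 2 were reached by 8 tiles of the low plates (2.71%) and by 5.03% of the high tiles elsewhere.

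The separation from the low background was wide, but the border at 0 cut through some tiles. Of the other tiles, 3096 (87.4%) lay below -1 and 447 between -1 and 0. Within 0.25 of the border lay 73 high tiles and 84 others. The high tiles nearest to 0 were TC23E02 at 0.01 ± 0.39 (SD, n = 4) and TA29D02 at 0.02 ± 0.19, and the nearest on the other side were TC29D05 at -0.01 ± 0.25 and TA38G10 at -0.01 ± 0.20. All 4 had replicates on both sides of 0.

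The highest single tile was TA63E06, with 2.30, 2.62, 2.40 and 2.66 for I to IV. The tile before it was at 1.18 and the one after it at 0.47, so it was the top of a run. TA41B10 had 2.36, 2.52, 2.23 and 2.26. It stood on a plate whose other tiles had a median of -2.46, and the next tile was already at -1.63. TA53F12 had 2.17, 2.37, 2.27 and 2.19, TA53F08 had 2.18, 2.10, 2.25 and 1.87, and TA53F09 had 1.92, 2.08, 2.22 and 2.13. These 3 tiles belong to 1 run. TA48C10 had 2.04, 2.30, 1.78 and 2.78, the widest spread among the 10 highest tiles. TA29A12 had 2.08, 2.28, 2.07 and 2.35, and TA30C11 had 2.10, 2.17, 2.31 and 2.15. TA26E10 had 2.09, 1.98, 2.01 and 1.72, and TA59A01 had 1.79, 2.05, 1.75 and 1.99. In all 10 the lowest replicate was far above every plate median of the low plates. The TC blocks did not reach these levels. Their highest tiles were TC25B01, with 1.62, 1.73, 1.44 and 1.57, and TC30B04, with 1.83, 1.42, 1.67 and 1.40.

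High tiles were unevenly spread over the blocks (the plot of high tiles by plate). TA21 to TA30 held 120 of them among 824 tiles (14.6%), and TA37 to TA51, the longest block, held 53 among 1343 (3.95%). The TC blocks were also sparse, with 30 of 783 (3.83%) in TC17 to TC25 and 21 of 316 (6.65%) in TC27 to TC30. Among the short TA blocks, TA57 to TA59 had 33 of 285 (11.6%) and TA62 to TA63 had 21 of 191. TA53, a single plate, had 17 of 96 (17.7%). All 7 blocks had smaller shares than the plates that interrupt the short ones. That follows from the listing, which took plates that were low in these same data. On the plates that lie between the short TA blocks, TA52, TA54 to TA56, TA60 and TA61, 198 of 569 tiles (34.8%) were above 0. The level followed a similar order, with a median of 0.83 ± 0.05 (SD, n = 4) in TA21 to TA30 and 0.50 ± 0.02 in TA37 to TA51. It was 0.42 ± 0.06 in TC17 to TC25 and 0.41 ± 0.09 in TC27 to TC30. The short TA blocks lay between, at 0.79 ± 0.30 (TA53), 0.61 ± 0.18 (TA57 to TA59) and 0.56 ± 0.11 (TA62 to TA63), with spreads between replicates that span most of these differences.

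**Figure D1:**
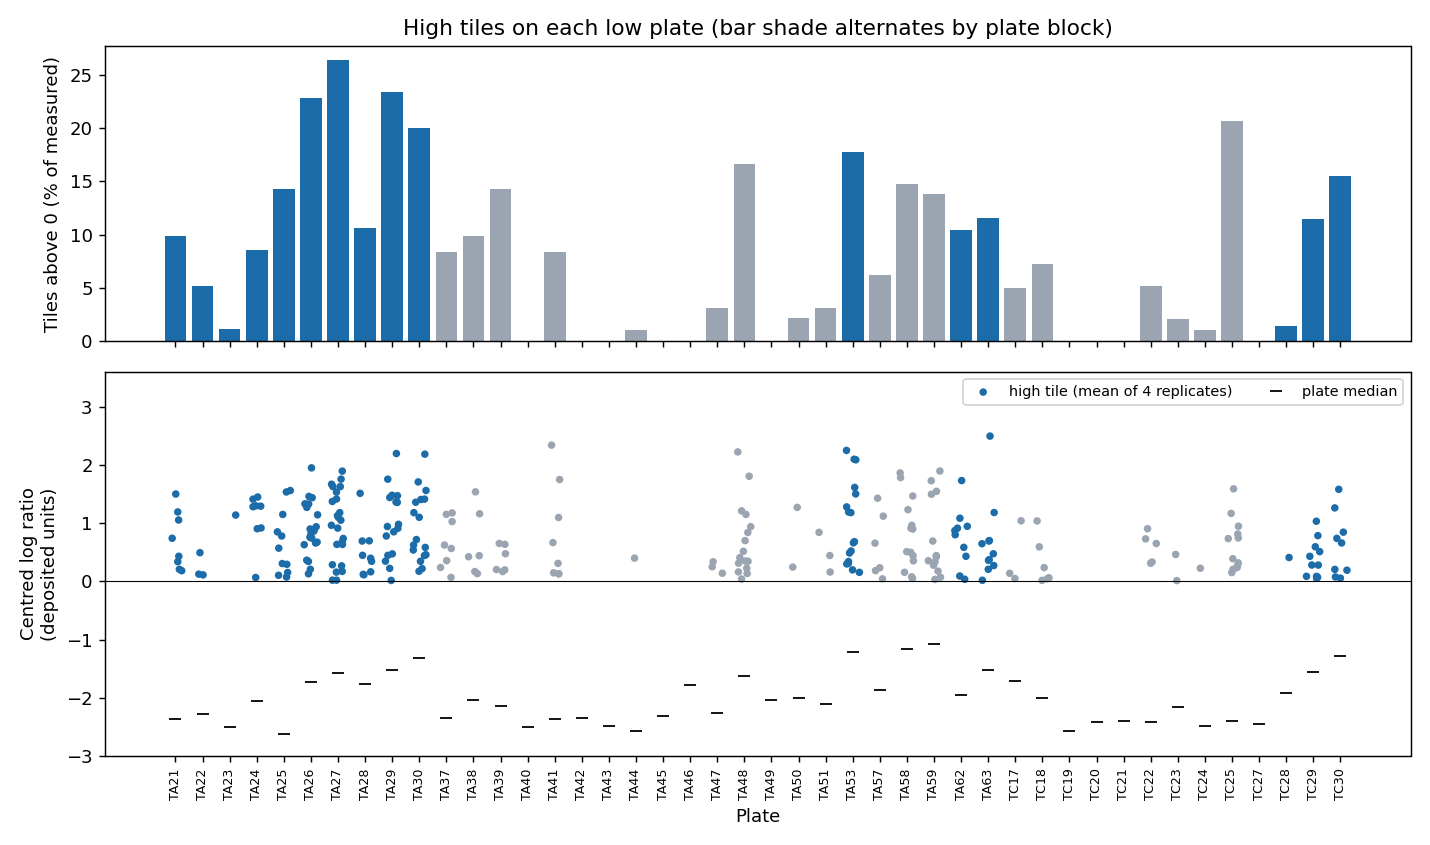
High tiles on each of the 44 low plates, in plate order, with bar and point shades that alternate by block. The upper panel gives the share of measured tiles with a mean above 0 (%), and the lower panel gives each high tile's mean over 4 replicates and, as a dash, the plate's median (centred log ratio, deposited units). TA26 to TA30 carry the tallest group of bars, and 10 plates carry none.

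Within blocks the high tiles were again concentrated. TA21 to TA25 held 31 high tiles among 394 (7.87%), and TA26 to TA30 held 89 among 430 (20.7%). TA27 alone had 24, the most of any plate. In TA37 to TA51, TA48 held 16 of the 53. In TC17 to TC25, TC25 held 12 of the 30, and in TC27 to TC30 all but 1 of the 21 lay on TC29 and TC30. Altogether 13 plates with 10 or more held 195 of the 295. At the other end, 10 plates with 948 measured tiles had no high tile: 6 in TA37 to TA51, 3 in TC17 to TC25, and TC27. On TC27 the highest tile, TC27G10, was at -0.83, while on TA46 the highest, TA46G10, came to -0.01. Places within the plate differed less: between 5.76% (row E) and 9.53% (row G) of the tiles of a row were high, and between 6.03% (column 8) and 9.09% (column 1) of those of a column.

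Read in the order of their IDs, along the rows of each plate and on to the next plate of the block, the 295 high tiles formed 134 runs, called islands here. That this order follows the chromosome is an assumption, since tiles could not be tied to coordinates. The name island is loose, since 77 islands (57.5%) were single tiles. Another 19 had 2 tiles, 23 had 3 or 4, and 15 had 5 or more. The mean length was 2.20 tiles and the longest island had 10. On the other plates, by the same rule, tiles above 0 formed 2240 runs with a mean of 4.64 tiles and a longest run of 64, and 27.1% of them were single tiles (the plot of run lengths). Runs of 5 or more held 98 of the 295 high tiles (33.2%), against 70.6% of the high tiles elsewhere. Run length depends on the share of tiles above 0, which was 7.69% on the low plates and 59.6% on the others. The lengths were not adjusted for that share, so whether islands are short for their share was not tested. The order of the wells mattered to these run lengths. Read down the columns of the plates, the same 295 tiles fell into 243 runs and the longest had 3 tiles. With islands joined over 1 tile that was not high, there were 114, and the longest had 17 tiles.

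**Figure D2:**
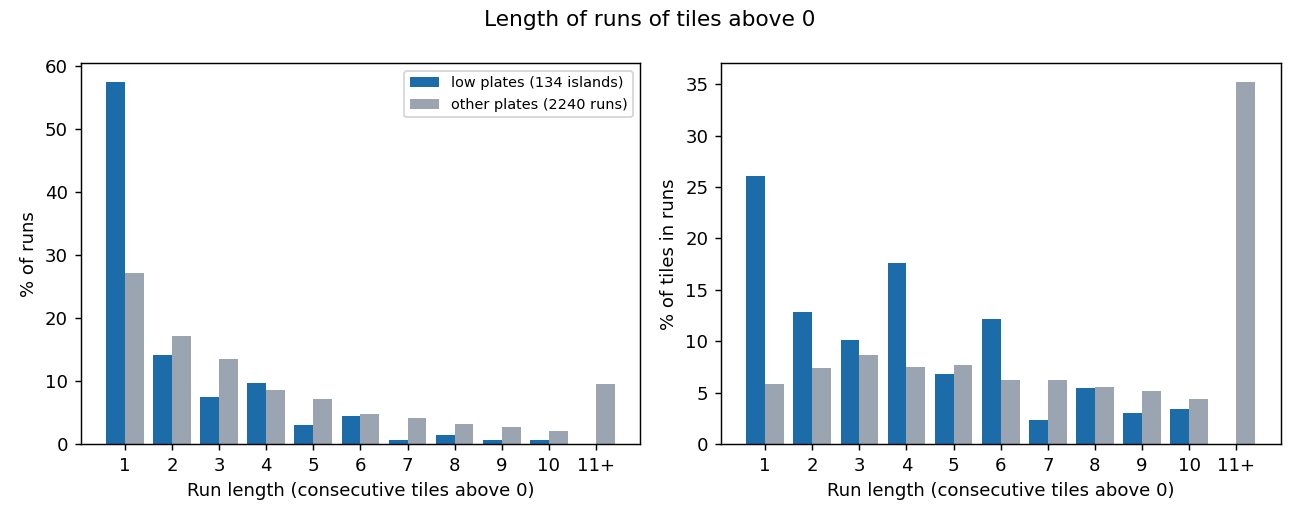
Lengths of runs of consecutive tiles with a mean above 0 on the 44 low plates and on the other plates. The left panel gives the share of runs (%) and the right panel the share of tiles in runs (%), by run length in tiles, with 11 or more pooled. Single tiles make up 57.5% of the islands, and no island of the low plates is longer than 10 tiles. The share of tiles above 0, on which run length depends, was 7.69% on the low plates and 59.6% on the others.

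Islands differed in length between blocks, which also differed in their share of high tiles, and lengths were not adjusted for that share. Their mean length was 2.79 tiles in TA21 to TA30 (43 islands), 1.83 in TA37 to TA51 (29 islands), 1.58 in TC17 to TC25 (19 islands) and 1.31 in TC27 to TC30 (16 islands). The TC islands were thus the shortest, and in TC27 to TC30, 13 of the 16 were single tiles. The longest islands of TC17 to TC25 and of TC27 to TC30 had 4 and 3 tiles. The 5 islands of TA53 averaged 3.40 tiles, the 14 of TA57 to TA59 averaged 2.36, and the 8 of TA62 to TA63 averaged 2.62. Islands were also packed at different densities. There was 1 for every 19.2 measured tiles in TA21 to TA30, and 1 for every 46.3 in TA37 to TA51.

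Gaps between islands ranged from very short to several plates long. They pool blocks of different density, and whether islands cluster beyond their density was not tested. Between neighbouring islands of a block lay a median of 8 measured tiles (quartiles 2 and 24, 127 gaps). In 54 gaps there were 5 tiles or fewer, and in 21 there was 1. The tile in these 21 gaps ranged from TC29D05 at -0.01 to TA30C10 at -2.53, so some of these gaps only reflect the border at 0. In 7 gaps more tiles lay between the islands than a full plate holds (96). The longest gap held 364 tiles, from TA44B04 to TA47H10, with a median of -2.25. The next held 306 tiles, from TC18H11 to TC22B12, with a median of -2.48 and a highest tile, TC19G01, at -0.43. A gap of 272 tiles separated TA41C07 from TA44B04, so that TA44B04, a single tile at 0.40, was the only high one between TA41C07 and TA47H10. Runs of the other tiles had a mean length of 17.1 and a longest of 327, where a tile without a value also ended a run.

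The longest island, TA53F07 to TA53G04, had 10 tiles and a mean of 1.41, 1.28, 1.51 and 1.18 for I to IV (1.34 ± 0.15, SD, n = 4). All 10 tiles were above 0 in every replicate. The island had a dip between its tops, with TA53F10 at 0.52 ± 0.29 between TA53F09 at 2.09 ± 0.13 and TA53F11 at 1.61 ± 0.24. Its borders were unlike. TA53F06, before it, was at -0.13 ± 0.14, and TA53F07, its first tile, had 1.51, 1.60, 1.62 and 1.28. On the other side the fall took several tiles, from TA53G03 at 1.18 ± 0.11 over TA53G04 at 0.30 ± 0.22 and TA53G05 at -1.13 ± 0.15 to TA53G06 at -2.34 ± 0.21.

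On TA27 a pair of long islands stood close together. TA27F06 to TA27G01 had 8 tiles, with a mean of 1.18, 1.14, 1.24 and 1.22 in I to IV. TA27G04 to TA27G12 had 9 tiles, with 0.87, 1.09, 0.90 and 1.12. Every tile of both was above 0 in all replicates. Between them the table lists no well TA27G02, and TA27G03 was at -1.28 ± 0.08, with no replicate above -1.19. The second island had a top near each end, TA27G05 at 1.63 ± 0.23 and TA27G11 at 1.76 ± 0.06, and ended sharply, with TA27G12 at 0.27 ± 0.13 and TA27H01 at -2.05 ± 0.38.

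TA30C11 to TA30D06 had 8 tiles and means of 1.17, 1.22, 1.25 and 1.28. Its first tile was also its highest, TA30C11 at 2.19 ± 0.09. The tile before it, TA30C10, was at -2.53 ± 0.10, and the one before that, TA30C09, was a single high tile at 1.18 ± 0.18, with TA30C08 at -2.93 ± 0.10 on its other side. From TA30C08 to TA30C11 the level therefore changed by more than 3 units at each of 3 steps, in all 4 replicates (the plot of the longest islands). TA58F11 to TA58G05 had 7 tiles and differed most between replicates among these 5 islands, with means of 0.57, 1.23, 0.73 and 1.13 for I to IV (0.92 ± 0.31). Its first tile, TA58F11, was at -0.05, 0.70, 0.15 and 0.61 for I to IV. Its last, TA58G05, was at 1.85, 1.75, 1.89 and 1.64, so the difference between replicates did not run through the whole island.

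**Figure D3:**
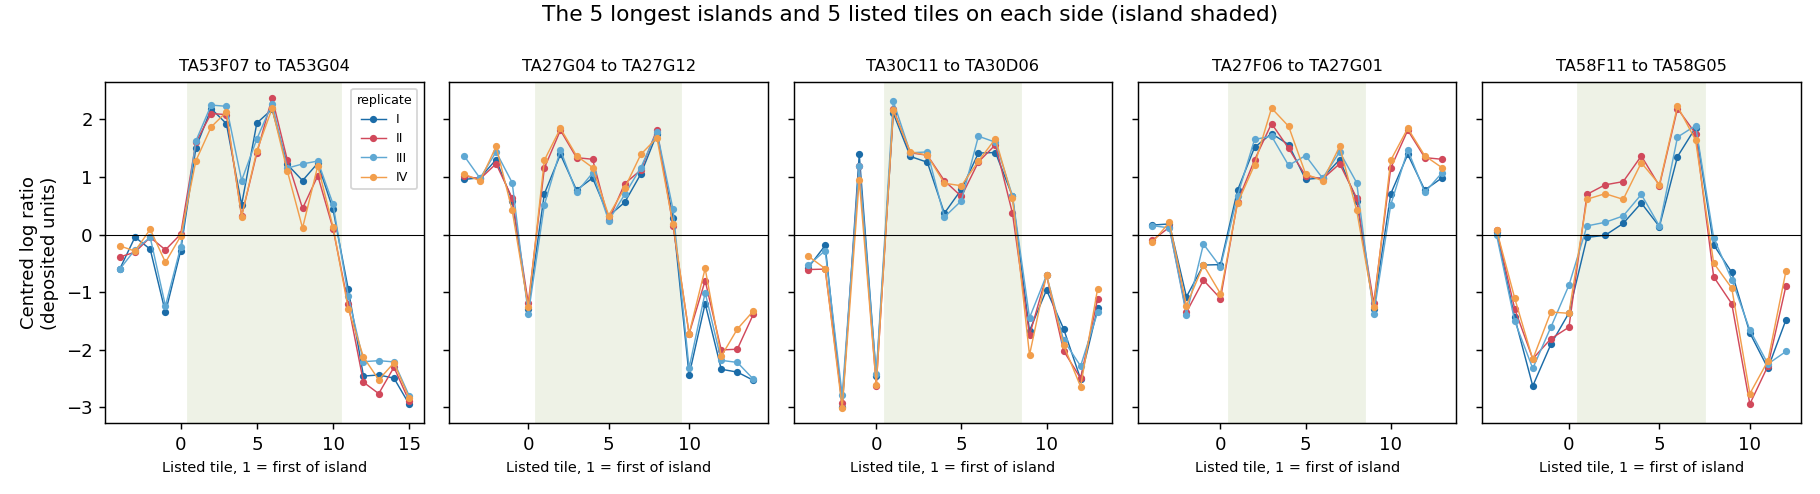
Centred log ratio (deposited units) in each replicate along the 5 longest islands and up to 5 listed tiles on each side. The horizontal axis counts listed tiles from the first tile of the island, tiles without a value are left out, and the island is shaded. In TA58F11 to TA58G05 replicates II and IV lie above I and III over the first 6 tiles. They also do so from TA27G04 to TA27G07 and at TA30D02, while at TA53G02 they lie below.

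Levels were higher in longer islands. The median of the high tiles was 0.38 ± 0.04 (SD, n = 4) for the 77 single tiles, 0.61 ± 0.07 in islands of 2, 0.65 ± 0.06 in islands of 3 or 4 and 0.90 ± 0.06 in islands of 5 or more. The classes of 2 and of 3 or 4 did not differ beyond the spread between replicates. Single tiles could still be high, up to 1.71. Of the 77 single tiles, 65 had measured neighbours on both sides, and in 26 of these both neighbours were below -1. Another high tile lay 2 tiles away from 20 of the 77.

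Read in the order of the IDs, the level inside an island rose from the border inward, and outside it fell over several tiles (the plot by distance). The 191 edge tiles had a median of 0.50 ± 0.02 (SD, n = 4), the 66 tiles that were the second from a border 0.92 ± 0.06 and the 38 deeper ones 1.01 ± 0.07. The 230 tiles next to a high tile had a median of -1.05 ± 0.04, the 179 at a distance of 2 tiles -1.56 ± 0.08 and the 150 at 3 tiles -1.94 ± 0.13. The 491 tiles at 6 to 10 tiles were at -2.21 ± 0.13, and the 757 at more than 50 tiles at -2.38 ± 0.15. Single tiles count as edge tiles here, tiles second from a border need an island of 3 or more, and the deeper ones come only from islands of 5 or more, which were also the highest. Tiles next to a high one were the least low of the other tiles in every replicate. The distances pool all blocks, and blocks differed in the level of their other tiles. These had a median of -1.48 in TA53 and -1.60 in TA57 to TA59, against -2.28 in TA37 to TA51. Whether the fall with distance holds within each block was not tested.

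**Figure D4:**
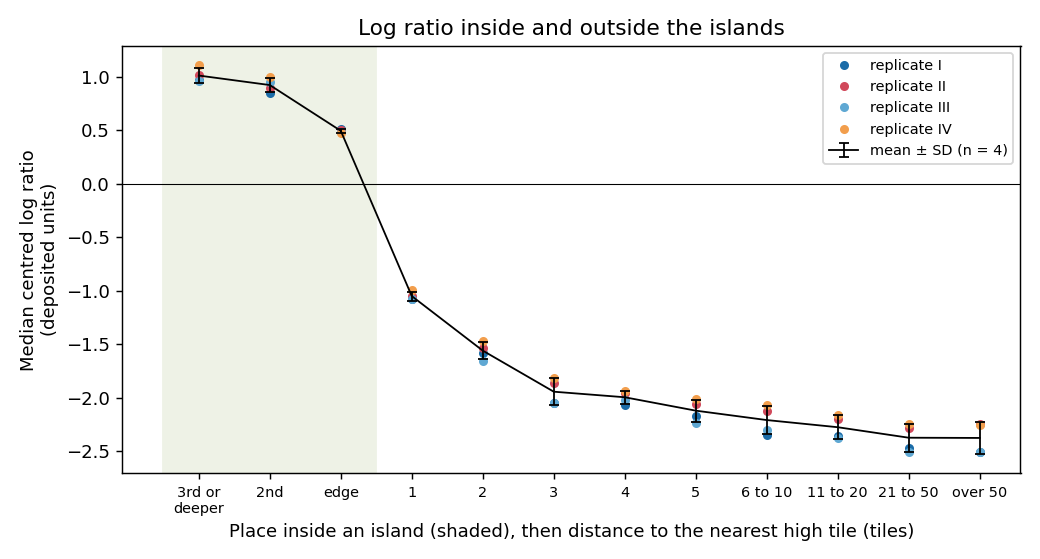
Median centred log ratio (deposited units) of tiles inside islands, by place from the border (shaded), and of the other tiles of the low plates, by distance to the nearest high tile in tiles. Coloured points are the 4 replicates and the black line their mean with SD. The median falls from 0.50 at the edge tile to -1.05 at the next tile and to -2.38 beyond 50 tiles.

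The step at an island's border was larger than at borders of high runs elsewhere. Over the 250 of 268 borders with a measured tile outside, the edge tile exceeded its outer neighbour by a median of 1.54 ± 0.10 (SD, n = 4), from 1.45 in IV to 1.69 in I. Over 4162 borders on the other plates the step was 1.18 ± 0.02. The difference came with a lower outside, -0.997 ± 0.036 against -0.495 ± 0.019, while the edge tiles themselves were slightly lower, 0.45 ± 0.05 against 0.58 ± 0.01. The outer neighbour lay below -1 at 120 of the 250 island borders (48.0%) and at 19.5% of those elsewhere. Both sides of a border were set by the same rule at 0, so these steps describe and do not test.

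Agreement between replicates was examined next. Counts of replicates above 0 use the same 4 values as the rule, so they describe and do not test. Of the 295 high tiles, 228 (77.3%) were above 0 in all 4 replicates, 43 in 3, 23 in 2 and 1 in a single replicate. Over all measured tiles 43.0% were above 0 in all 4, and among the high tiles of the other plates 8921 (85.7%) were. Single tiles were above 0 in every replicate in 53 of 77 cases (68.8%), and tiles of islands of 5 or more in 84 of 98 (85.7%). By limma's moderated test against 0 with Benjamini-Hochberg adjustment over all tiles, 214 of the 295 (72.5%) were above the median. The share was 42.2% over all tiles and 84.3% among the high tiles of the other plates. I and II share a number in their arrays' titles, as do III and IV. With each of these pairs averaged first, the count was 250, with 46.1% of all tiles above. Each average holds 1 of I and III and 1 of II and IV, the pairs that resemble each other most. The 2 averages are therefore not independent, and the 4 replicates are not fully so. The rule used the contrast with 0, and nothing further is read from these counts.

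When the tiles were chosen on some replicates and read in others, most stayed above 0. Chosen on the mean of 3 replicates, 290 to 302 tiles of the low plates were high. In the replicate left out, 269 of 299 were above 0 for I, 265 of 295 for II, 252 of 302 for III and 266 of 290 for IV. The median in the replicate left out was 0.63, 0.63, 0.61 and 0.62. Each array's title carries a pair of numbers that the labels do not explain, and by the latter of them I goes with II and III with IV, while the former differs on every array. Of 303 tiles chosen on I and II, 278 were above 0 in the mean of III and IV, with a median of 0.59. Of 294 chosen on III and IV, 278 were above 0 in the mean of I and II, with a median of 0.66. These readings are not fully independent, because I resembles III and II resembles IV, so each side of these splits has a look-alike on the other. I and III were not set against II and IV. The low plates had been listed with all 4 replicates known. Over all measured tiles the mean was above 0 in 50.2%, and no such reading was made for high tiles elsewhere. The counts describe and do not test.

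That resemblance held for the high tiles too. Across the 295 tiles, which share arrays and are not replicates, Pearson's r was 0.929 between II and IV and 0.876 between I and III, and from 0.727 to 0.762 in the remaining pairs. TA22A09 lowered every pair with I: without it r was 0.921 for I and III, 0.778 for I and II and 0.792 for I and IV. It is on the list through 1 replicate only, with 3.06, -0.49, -0.21 and -0.38 for I to IV. The SD of the difference between replicates over high tiles was 0.23 for II and IV, 0.31 for I and III (0.25 without TA22A09), and 0.43 to 0.45 for the remaining pairs. Without TA22A09 it was 0.40 for I and II and 0.39 for I and IV.

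High and other tiles of the low plates differed in how the replicates were offset. Among the other tiles, II exceeded I by a median of 0.17 and IV exceeded III by 0.19. Among the high tiles, II minus I had a median of -0.0045 and IV minus III one of 0.04 (the plot of replicate agreement). The height of high tiles over their plates, given above, was accordingly greater in I and III than in II and IV. Blocks did not share 1 pattern. In TA57 to TA59 the medians of high tiles were 0.49, 0.84, 0.46 and 0.64 for I to IV. In TA53 they were 0.94, 0.57, 1.15 and 0.52, and in TA62 to TA63 they were 0.68, 0.47, 0.64 and 0.47, so that I and III were above II and IV. The difference between blocks was not tested, because the pairs are not groups of the study.

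**Figure D5:**
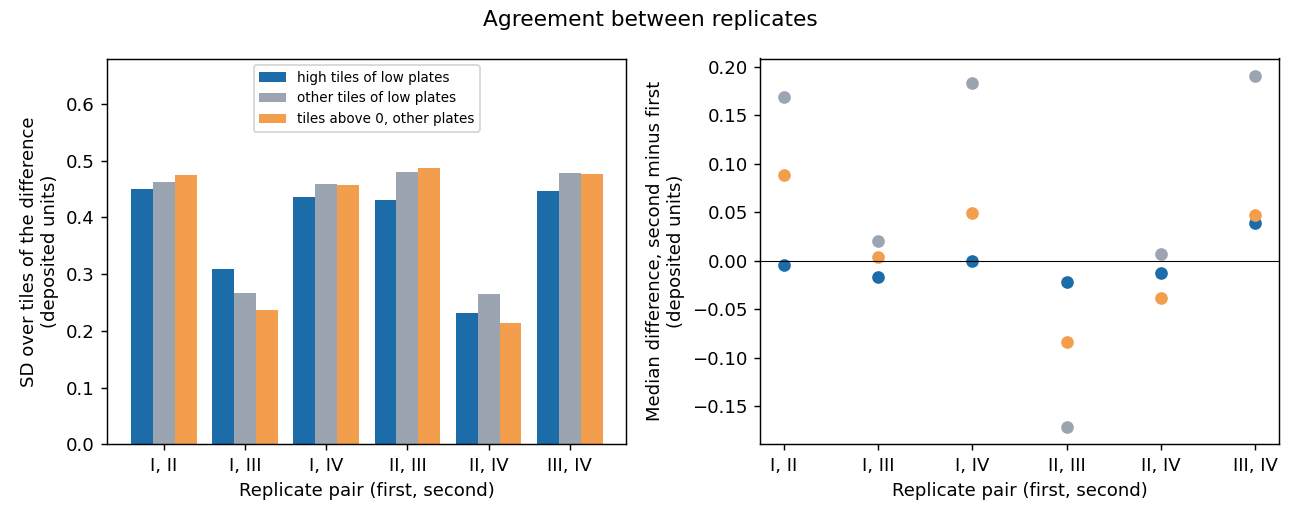
Agreement of each pair of replicates over the 295 high tiles of the low plates, the 3543 other tiles of these plates and the 10404 tiles above 0 on the other plates. The left panel gives the SD over tiles of the difference and the right panel the median difference, second minus first, both in deposited log ratio units. Differences within I and III and within II and IV are the narrowest in all 3 sets, and the offset between these pairs is largest for the other tiles of the low plates.

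The spread of a tile between replicates was about as wide for high tiles as for the rest. The median SD of a high tile was 0.21 (quartiles 0.14 and 0.31), against 0.23 for the other tiles of the low plates and 0.22 for high tiles elsewhere. As a test over replicates, each replicate was set against the mean of the other 3. The median absolute deviation of high tiles was 0.18, 0.20, 0.23 and 0.21 for I to IV, and lower than that of the other tiles in 4 of 4 replicates, by a mean of 0.02 (0.206 ± 0.020 against 0.231 ± 0.012, SD, n = 4; two-sided exact permutation by sign flips, p = 0.13, the smallest that 4 replicates allow). With each set's own offset in a replicate taken off, high tiles were lower in 3 of 4 replicates (0.204 against 0.218; exact sign-flip permutation p = 0.375). Against high tiles elsewhere they were lower in 2 of 4 (0.221 ± 0.009; exact sign-flip permutation p = 0.5). The 4 replicates are not fully independent, because I resembles III and II resembles IV, and no difference in spread was shown.

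The shape of an island was partly alike in the replicates. In 20 of the 38 islands of 3 tiles or more the same tile was the highest in all 4 replicates, TA63E06 and TA30C11 among them. These were 13 of the 23 islands of 3 or 4 tiles and 7 of the 15 of 5 or more. Runs on the other plates were not examined for this, and the 4 replicates are not fully independent. In 79 of the 134 islands, 16 of them of 3 tiles or more, every tile was above 0 in every replicate. Taken from a single replicate, 282 (III) to 321 (IV) tiles of the low plates were above 0, of which 86.3% (IV) to 92.2% (III) were among the 295. Each replicate is part of the mean that chose the 295, so this overlap was partly set in advance. The tiles above 0 in a single replicate formed 128 to 151 islands with mean lengths of 2.13 to 2.22 and a longest of 10 or 11 tiles. Neighbouring high tiles of 1 island resembled each other less than neighbouring other tiles did, with an r of 0.26 ± 0.02 (SD over 4 replicates, 161 pairs) against 0.47 ± 0.03 (3336 pairs). The range of the high tiles is narrower, and the r is a description. The steadiest high tiles were TA27F11, with 0.98, 0.96, 0.98 and 0.93, and TA30C12, with 1.35, 1.42, 1.42 and 1.44. The least steady after TA22A09 was TA38G06, with 0.66, 0.17, -0.91 and 0.61.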

How the data were processed

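IP and input DNA had been amplified and carried Cy3 or Cy5, per the labels' protocols. The values used are those of the authors' deposited value table, which are processed log ratios. For their software, background correction, normalization, log base and direction, the sources used here give nothing. In each replicate all 21296 features with a value were identical in both dye orientations, so a dye swap counted as 1 sample and n was 4. Separate cultures are not named in the labels, and the spread that p-values measure may be technical. The 39 features with IDs not of the plate and well form and 465 tiles without a value were left out. Of these tiles, 109 were on the low plates. Deposited medians were -0.79 (I), -0.46 (II), -0.89 (III) and -0.35 (IV), and each was subtracted. Signal over background is unknown, and the number of arrays limits the precision.

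Islands were runs of consecutive listed tiles, ended by a tile without a value or the end of a block. Wells that are not listed were passed over. The moderated test of limma 3.58.1 under R 4.3.3 (each tile against 0, Benjamini-Hochberg adjustment at 0.05 over all tiles) and the search for runs were tested on simulated data. Other values came from numpy 2.4.6, scipy 1.17.1 and pandas 2.3.3 under Python 3.11.15. Tiles were named as the 10 highest, the first, last and highest of the 5 longest islands, the highest of each block, the 2 nearest to 0 on each side, and the 2 with the largest and the smallest replicate SD. Other tiles named were chosen after their values were seen. The plates, the rule and these choices were made with earlier results of these data known. Alternatives were other centring, replicates averaged by a number in the array titles, thresholds, reading orders, sets of plates and replicates left out.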

Additional observations from a re-analysis of the deposited data

Results flagged for a closer look

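In 46 sets of 4 replicate values examined (named tiles, block medians, the longest islands and the height over the plate), 2 had 1 replicate far from the rest. Chance sets apart about 1 in 20 such sets when they are independent and were not chosen by their spread. The sets here overlap, and TA22A09 was named for its large replicate SD, so that rate does not apply to them. In TA22A09 replicate I stood at 3.06, with the others between -0.49 and -0.21, a gap of 0.922 of the whole range. In TA30D06, the last tile of its island, replicate II was at 0.37, with the others between 0.63 and 0.67, a gap of 0.872 of the whole range.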

How the results depend on the processing

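Where 0 or the threshold was set moved the counts, the threshold and the demand on replicates moved the level most, and the reading order moved the islands. With values as deposited, the low plates had 153 high tiles in 80 islands, a median level of 0.54, a median replicate SD of 0.31 and 85 tiles above 0 by limma. With centring on the mode the values were 150, 81, 0.54, 0.28 and 91, and with a threshold of 0.58 there were 157 tiles in 82 islands with a median of 1.15. Under values as deposited and under centring on the mode, TA53G04 (-0.32 and -0.33), TA27G12 (-0.35 and -0.37) and TA30D06 (-0.038 and -0.050) fell below 0, as did TA58F11 (-0.27 and -0.28), TA22A09 (-0.13 and -0.14), TA38G06 (-0.49 and -0.50), TC23E02 (-0.61 and -0.62) and TA29D02 (-0.61 and -0.62), which had not passed limma's test; this follows from the higher zero. Requiring all 4 replicates above 0 raised the median to 0.85. Plates with a median below -1.5 gave 0.61. Without TA21 to TA30, a setting chosen after seeing the data, there were 175 tiles with a median of 0.51, and 116 by limma. Wells read down columns gave 243 islands with a longest of 3, and islands joined over 1 tile a longest of 17. Leaving out a replicate in turn gave 290 to 302 tiles, 134 to 142 islands, a longest island of 10, medians of 0.61 to 0.65, a replicate SD of 0.18 to 0.21 and 192 to 204 tiles by limma. The settings that end a run at an unlisted well (140 islands), take off offsets and leave out TA22A09 were also added after seeing the data. Among the named tiles, TA22A09 fell to -0.36 without I. TC23E02, TA29D02, TA38G06, TC29D05 and TA38G10, which lie near 0, also changed sign when some replicate was left out, and quantile normalization changed no sign. No paired analysis was possible because there is 1 group of samples.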
